A study of Bos taurus with 6 samples.

Results

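The nuclear-encoded subunits of respiratory complexes II, III, IV and V, with cytochrome c, form a set of 42 genes, of which 39 could be followed in back muscle of steers fed with and without added vitamin A. A gene was followed where a probe set of the array, left after removal of control probe sets, is annotated with that gene symbol alone. Where a gene had several such probe sets, the one with the highest mean over the 6 arrays stood for it. The 39 genes are 4 of complex II, 9 of complex III, 11 of complex IV and 15 of complex V, out of 9155 genes with such a probe set. The other 3 members, CYCS, COX6B1 and COX7B, were not analysed here.

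The animals were 6 castrated male Japanese Black cattle, and the tissue was longissimus thoracis, a long muscle of the back. Fattening began when they were 13 to 14 months old, lasted 7 months with a daily gain of 1.0 kg, and ended at 20 to 21 months. The 3 supplemented steers received oral vitamin A weekly, 296.8 IU for each kg they weighed, and were 600, 612 and 618 days old. The 3 restricted steers had this supplementation restricted, and were 589, 595 and 611 days old. Both groups shared breed, sex, tissue and feeding plan, and each array holds 1 steer. The 7 muscle fibre markers with a probe set, among them the muscle actin ACTA1, the creatine kinase CKM and myoglobin (MB), had mean deposited log2 values of 9.71 to 12.67, against a median of 5.14 over all 24016 probe sets tested.

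The respiratory chain lies in the inner mitochondrial membrane and passes electrons from fuel to oxygen. Complex II (succinate dehydrogenase) takes electrons from succinate in the citric acid cycle, complex III passes them from ubiquinol to cytochrome c, and complex IV (cytochrome c oxidase) hands them to oxygen. Complex V, the ATP synthase, uses the proton gradient built by the chain to make ATP. In skeletal muscle these proteins are abundant in slow and other oxidative fibres, and complex IV carries muscle forms of several subunits in place of the forms used in liver and most other tissues.

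The 6 deposited values of a gene lie very close together for most genes, for a reason not given in the sources used here, so no difference is read as a fold change. Values of single steers are therefore given as the deposited log2 value minus the gene's mean over the 6 arrays, in millionths of a log2 unit. Differences are restricted minus supplemented, in the same unit with their standard error (SE) or divided by the within-group standard deviation (SD) of that gene. The range over the 6 steers ran from 0.444 millionths in COX7C to 456 millionths in COX8B, with a median of 24.6 over the 39 subunits, against a median of 0.677 over all probe sets tested. The medians of whole arrays spanned 8.88 millionths, more than the range of 9 of the 39 subunits.

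Nearly all subunits had a higher mean in restricted steers, but none passed the test of single genes. Of the 39, 36 were higher and 3 lower, the 3 being SDHC of complex II and COX6C and COX7C of complex IV. Over all genes 49.5% were higher and 50.4% lower. By limma with Benjamini-Hochberg adjustment over all probe sets, 0 of the 39 passed the threshold of 0.05 in either direction, each at an adjusted p of 1.0. Over all genes 0% passed as higher and 0.0109% as lower, and over all probe sets 0.00416% passed as lower. At an unadjusted limma p under 0.05, 2 of the 39 were higher and 0 lower, where all genes had 2.15% higher and 2.47% lower. The median difference of the 39 subunits was 0.959 within-group SDs, against -0.00786 for all genes. How far these 39 genes vary together from steer to steer limits what their count shows, since it comes from 3 animals against 3.

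**Figure D1:**
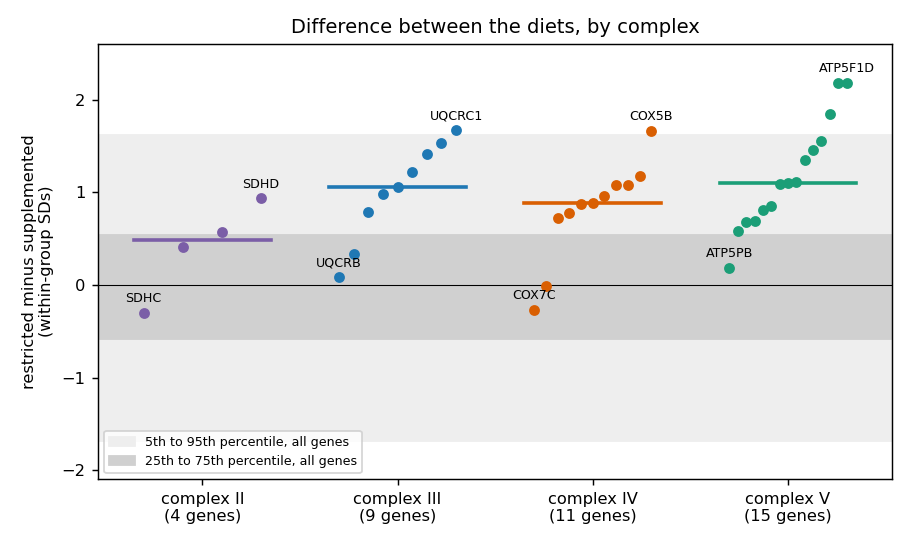
Difference between the diets (restricted minus supplemented, in within-group SDs, vertical axis) for each subunit gene (points), grouped by complex (horizontal axis), with the median of each complex as a line. Grey bands hold the middle 50% and 90% of all 9155 genes. Points of complexes III to V lie mostly above the inner band, whose upper edge is at 0.541, and those of complex II lie inside and around it.

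By complex, the count of higher members was 3 of 4 in complex II, 9 of 9 in complex III, 9 of 11 in complex IV and 15 of 15 in complex V. Median differences were 0.486, 1.06, 0.884 and 1.10 within-group SDs in that order, and 0.346, 0.678, 0.624 and 0.183 SDs with every array shifted to the same median, which moved complex V from the highest to the lowest. Within complex V the differences ran from 0.187 SDs in ATP5PB to 2.18 SDs in ATP5F1D and ATP5MC3. The differences between the complexes were not tested, because members of a complex are not replicates of a diet. With that shift, 3, 8, 9 and 10 members of complexes II, III, IV and V were higher, 30 of 39 in all, and 10.8% of all genes were. The median over the 39 was then 0.549 SDs and that over all genes -0.737 SDs. The shift itself lowered every difference by 2.22 millionths. Of all probe sets tested, 85.9% have a range below the span of the array medians. The share and median over all genes thus mostly reflect the shift itself, and are no background for the subunits, whose ranges are wider. The 6 subunits that turned to lower with this shift were UQCRB, ATP5F1C, ATP5F1E, ATP5PB, ATP5ME and ATP5MG, and 5 of them have a range below the span of the array medians. Quantile normalization gave 33 of the 39 the same value in all 6 steers, and 1 of the 6 left was higher (37% of all genes left). Of the others, SDHD, ATP5F1D and COX6A1 had a difference of 0, and COX8A and ATP5PF were lower.

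The steers did not fall into 2 separate sets. Supplemented steer 1 had the lowest value of the 6 in 30 of the 39 subunits, 76.9%, against 18.8% of all genes. It was lowest in 2 of 4 members of complex II, 7 of 9 of complex III, 7 of 11 of complex IV and 14 of 15 of complex V. Supplemented steer 2 lay below all 3 restricted steers in 26 of the 39 (24.8% of all genes), and supplemented steer 3 did so in 4 (22.8% of all genes). Supplemented steer 3 was the highest of the 6 in 9 subunits, 23.1%, close to the 20.7% of all genes. It lay within the range of the restricted steers in 26 subunits, and in 4442 of 9155 genes. The highest value fell in restricted steer 2 in 15 subunits, in restricted steer 1 in 10 and in restricted steer 3 in 3. Over all genes it fell in restricted steers 2, 1 and 3 in 15.6%, 16.3% and 15.1%. The SD was larger among supplemented than among restricted steers in 28 of the 39 subunits, and in 52.6% of all genes.

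**Figure D2:**
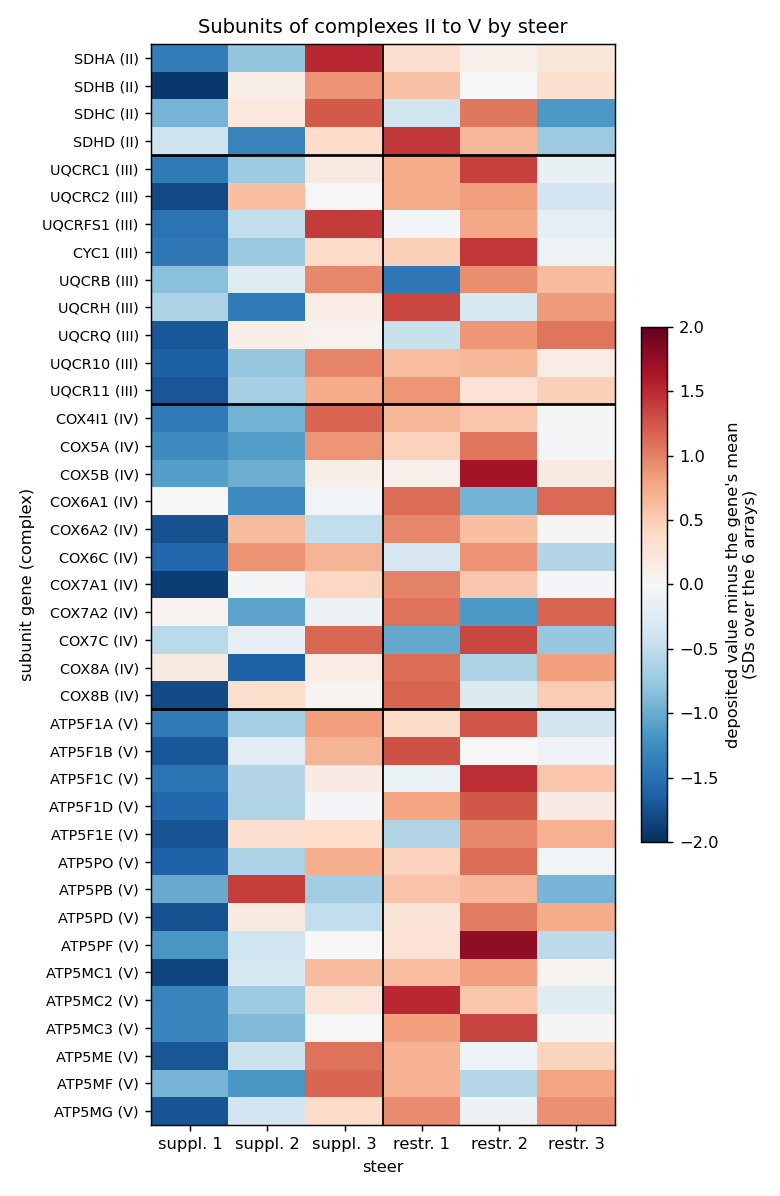
Deposited value of each of the 39 subunit genes (rows, ordered by complex) in each steer (columns), minus the gene's mean and in SDs over the 6 arrays (colour). The column of supplemented steer 1 is the lowest in most rows of complexes III to V, and 3 rows of complex IV (COX6A1, COX7A2 and COX8A) are lowest in supplemented steer 2 and restricted steer 2 instead.

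As a score per steer, the mean over the members of each value in SDs over the 6 arrays, the 39 subunits stood at -1.30, -0.422 and 0.458 in supplemented steers 1, 2 and 3. They stood at 0.506, 0.611 and 0.144 in restricted steers 1, 2 and 3. The group means were -0.420 ± 0.877 and 0.420 ± 0.245 (SD, n = 3 each), so the difference of 0.840 is smaller than the SD of the supplemented steers. Without supplemented steer 1 the same difference was 0.402, and 31 of 39 subunits were higher (47.9% of all genes). By complex it went from 0.403 to -0.0800 in complex II, from 0.892 to 0.414 in complex III, from 0.750 to 0.436 in complex IV and from 0.991 to 0.499 in complex V. In each complex the score of supplemented steer 3 lay within or above the range of the restricted steers.

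**Figure D3:**
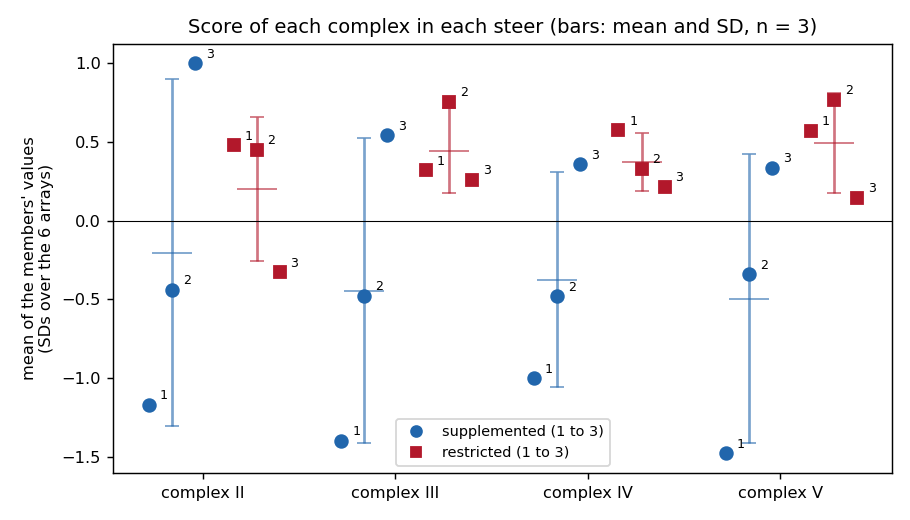
Score of each complex (mean of its members' values in SDs over the 6 arrays, vertical axis) in each steer, as blue circles for supplemented and red squares for restricted steers, numbered by replicate. Bars give the mean and SD of 3 steers. Supplemented steer 1 is lowest in all 4 complexes, down to -1.48 in complex V, while supplemented steer 3 stands among or above the restricted steers.

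Complex II is the enzyme shared by the respiratory chain and the citric acid cycle, and 3 of its 4 members had a higher mean in restricted steers. SDHA, the flavoprotein that oxidises succinate, stood at -36.7, -20.7 and 40.1 millionths in supplemented steers 1, 2 and 3 and at 8.84, 2.56 and 5.99 in restricted steers 1, 2 and 3. The restricted steers thus lay inside the spread of the supplemented ones, and the difference was 11.6 ± 22.2 millionths (SE, limma unadjusted p = 0.626). SDHB, the iron-sulphur subunit, had -29.5, 2.14 and 13.6 millionths in supplemented and 8.87, -0.0405 and 4.89 in restricted steers (difference 9.14 ± 12.4 SE, limma unadjusted p = 0.498). Supplemented steer 1 was below the other 5 steers in SDHB, and supplemented steer 3 above them. Of the membrane anchors, SDHD differed by 0.933 SDs and SDHC by -0.302 SDs. SDHD had -4.39, -14.0 and 3.94 millionths in supplemented and 15.0, 7.03 and -7.63 in restricted steers, so its highest and its second lowest values were both in the restricted group. Without supplemented steer 1, SDHA and SDHB turned to lower, 1 of 4 members was higher and the median of complex II was -0.356 SDs. All 4 were higher without restricted steer 3 (48% of all genes) or without supplemented steer 3 (51.8% of all genes).

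Complex III has 2 core proteins, electron-carrying subunits and small supernumerary subunits, and its 9 members were all higher in restricted steers. UQCRC1, core protein 1, stood at -38.0, -19.6 and 4.96 millionths in supplemented and at 19.8, 36.7 and -3.87 in restricted steers. The groups overlapped through supplemented steer 3 and restricted steer 3, and the difference was 35.1 ± 16.2 millionths or 1.67 SDs (SE, limma unadjusted p = 0.0885). UQCRC2, core protein 2, differed by 0.786 SDs. CYC1, cytochrome c1, which hands electrons to cytochrome c, had -47.7, -25.0 and 12.9 millionths in supplemented and 15.9, 47.3 and -3.45 in restricted steers (difference 39.8 ± 21.8 SE, limma unadjusted p = 0.134). The 6 steers stood in the same order as in UQCRC1, from supplemented steer 1 to restricted steer 2. UQCRFS1, the Rieske iron-sulphur protein, differed by 0.337 SDs, with its highest value in supplemented steer 3.

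Among the supernumerary subunits of complex III, UQCRH, the hinge protein that binds cytochrome c1, differed most. It had -21.6, -49.3 and 5.32 millionths in supplemented and 47.1, -11.1 and 29.6 in restricted steers (difference 43.7 ± 22.1 SE, 1.53 SDs, limma unadjusted p = 0.111). Its lowest value was in supplemented steer 2, not in steer 1 as in most subunits. UQCR11, UQCRQ and UQCR10 differed by 1.22, 1.06 and 0.984 SDs and UQCRB by 0.0802 SDs, and UQCRB was lower with any one of supplemented steers 1 and 2 and restricted steers 2 and 3 left out. The median of complex III was 0.583 SDs without supplemented steer 1 and 2.13 SDs without supplemented steer 3.

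Complex IV has a catalytic core encoded by mitochondrial DNA, not analysed here, surrounded by nuclear-encoded subunits. Among those without a listed isoform, COX5B, a zinc-binding subunit, differed most. Its values were -8.43, -7.50 and 0.975 millionths in supplemented and 0.802, 12.7 and 1.40 in restricted steers. Restricted steer 2 stood above all others, supplemented steers 1 and 2 below, and the difference was 9.97 ± 4.63 millionths or 1.66 SDs (SE, limma unadjusted p = 0.0903), and 0.893 SDs with arrays shifted to the same median. COX5A differed by 1.08 SDs and COX4I1, the common form of subunit 4, by 0.781 SDs. COX6C and COX7C differed by -0.0135 and -0.269 SDs, and their ranges over the steers, 2.02 and 0.444 millionths, were the narrowest of complex IV. Both turned to higher when restricted steer 1 or 3, or supplemented steer 3, was left out.

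The muscle and liver forms of 3 complex IV subunits had higher means in restricted steers in each case, but followed different steers. COX6A2, COX7A1 and COX8B are the forms of heart and skeletal muscle, and COX6A1, COX7A2 and COX8A are those of liver and most other tissues. COX6A2 stood at -6.34, 2.32 and -1.78 millionths in supplemented and 3.51, 2.21 and 0.0813 in restricted steers (difference 3.87 ± 2.55 SE, limma unadjusted p = 0.196). COX7A1 stood at -90.3, -1.75 and 19.7 in supplemented and 47.7, 25.9 and -1.22 in restricted steers (difference 48.3 ± 34.5 SE, limma unadjusted p = 0.227). COX8B stood at -276.3, 53.2 and 8.93 in supplemented and 179.6, -43.0 and 77.6 in restricted steers (difference 142.8 ± 114.9 SE, limma unadjusted p = 0.275). Supplemented steer 1 was the lowest and restricted steer 1 the highest in each of these 3 muscle forms. In SDs COX6A2 differed by 1.17, which became 0.366 with arrays shifted to the same median and 2.56 without supplemented steer 2. Without supplemented steer 1, COX6A2, COX7A1 and COX8B differed by 0.758, 0.695 and 0.435 SDs.

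The liver forms were low in other animals. COX6A1 stood at 0.961, -200.7 and -9.35 millionths in supplemented and 180.2, -151.7 and 180.6 in restricted steers (difference 139.4 ± 121.5 SE, limma unadjusted p = 0.309). COX7A2 stood at 0.830, -11.3 and -1.31 in supplemented and 11.7, -12.3 and 12.4 in restricted steers (difference 7.84 ± 8.42 SE, limma unadjusted p = 0.399). COX8A stood at 25.8, -229.8 and 20.0 in supplemented and 158.2, -90.5 and 116.2 in restricted steers (difference 122.6 ± 107.7 SE, limma unadjusted p = 0.312). In each of the 3, supplemented steer 2 and restricted steer 2 had the 2 lowest values and restricted steers 1 and 3 the 2 highest. This order, picked out after the values were seen, was found in no other of the 39 subunits and in 149 of 9155 genes, 1.63%. The second probe set of COX6A1 did not show it, with its lowest value in supplemented steer 3 and its second highest in supplemented steer 2. Without restricted steer 2, COX6A1, COX7A2 and COX8A differed by 2.70, 3.01 and 1.65 SDs, and without supplemented steer 2 by 0.472, 0.362 and 0.353 SDs. The mean of the 3 muscle forms in SDs over the 6 arrays was -1.81, 0.315 and -0.00706 in supplemented and 1.04, 0.290 and 0.166 in restricted steers. That of the 3 liver forms was 0.0886, -1.31 and -0.0132 in supplemented and 1.11, -0.911 and 1.04 in restricted steers.

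**Figure D4:**
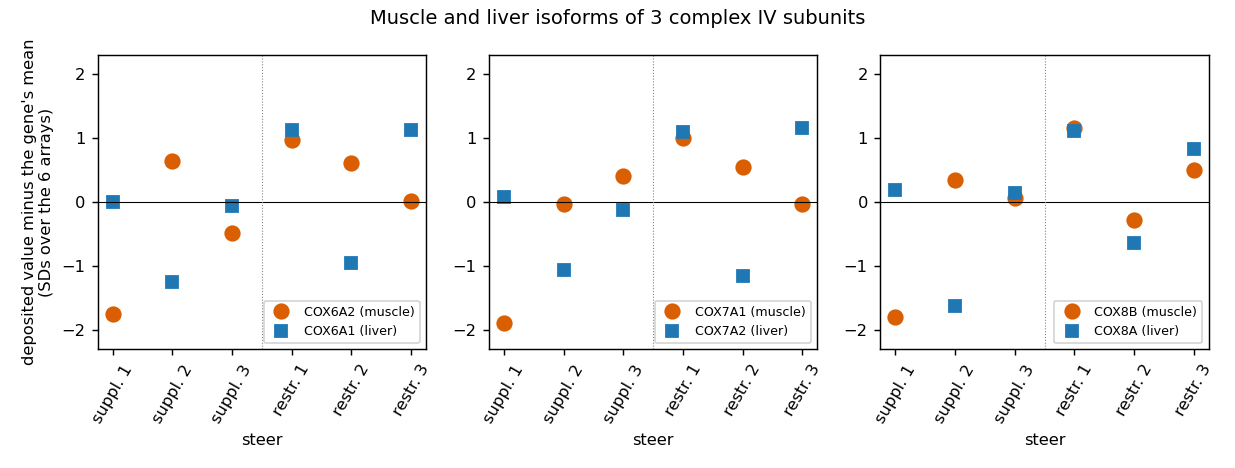
Deposited values of the muscle form (orange circles) and liver form (blue squares) of 3 complex IV subunits in each steer, minus the gene's mean and in SDs over the 6 arrays (vertical axis). The muscle forms are lowest in supplemented steer 1, and the liver forms in supplemented steer 2 and restricted steer 2.

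Fat cells lie between the fibres of this muscle, and white fat cells mainly carry the liver forms, so their marker genes are given here. All 11 adipocyte markers with a probe set were higher in restricted steers, with a median of 0.971 SDs. Their score was 0.335, -1.05 and -0.709 in supplemented and 1.00, -0.268 and 0.686 in restricted steers 1, 2 and 3. Restricted steers 1 and 3 were thus the 2 highest for adipocyte markers as for the liver forms, but the 2 lowest were supplemented steers 2 and 3, not supplemented steer 2 and restricted steer 2. FABP4, CIDEC and LIPE showed the full order of steers given above, and the other 8 of the 11 did not. CFD, the adipocyte-secreted complement factor D, had the smallest p of the list (6.35 SDs, limma unadjusted p = 0.000717, adjusted p = 1.0). The part of fat cells in the values of the subunits was not tested, and in bulk muscle fewer cells of a type and less RNA per cell cannot be told apart.

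Complex V turns a rotor in the membrane against a catalytic head held by a peripheral stalk, and all its 15 members were higher in restricted steers. The groups did not overlap in 3 of the 39 subunits, ATP5F1D, ATP5MC3 and ATP5PD, all of them higher and all of complex V, while 4.15% of all genes had every restricted steer above every supplemented one and 4.59% the reverse. ATP5F1D, the delta subunit of the central stalk, stood at -86.6, -33.3 and -1.57 millionths in supplemented and 43.7, 68.9 and 8.92 in restricted steers. The difference was 81.0 ± 28.6 millionths (SE, limma unadjusted p = 0.0415, adjusted p = 1.0). Its second probe set, with a range of 0.349 millionths, ran the other way, by -0.354 SDs. ATP5F1C, the gamma subunit that forms the axle, differed by 1.56 SDs and ATP5F1E, the epsilon subunit, by 0.687 SDs.

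ATP5MC1, ATP5MC2 and ATP5MC3 encode the same mature subunit c, many copies of which form the rotor ring. ATP5MC3 stood at -94.5, -63.8 and 0.104 millionths in supplemented and 59.2, 97.6 and 1.30 in restricted steers (difference 105.4 ± 37.3 SE, limma unadjusted p = 0.0417, adjusted p = 1.0). The gap between the groups was therefore only that between supplemented steer 3 and restricted steer 3, which stood close to the mean. That gap was below the span of the array medians. ATP5MC2 and ATP5MC1 differed by 1.45 and 1.09 SDs, and in both supplemented steer 1 was lowest.

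Of the peripheral stalk, which keeps the head from turning, ATP5PD stood at -18.7, 2.01 and -5.37 millionths in supplemented and 2.85, 11.1 and 8.07 in restricted steers. The difference was 14.7 ± 6.16 millionths or 1.84 SDs (SE, limma unadjusted p = 0.0686). The gap between the groups was below the span of the array medians, and small beside the distance of supplemented steer 1 from the rest. ATP5PF, ATP5PO and ATP5PB differed by 1.11, 1.10 and 0.187 SDs. ATP5PB was the 1 subunit of complex V whose highest value was in supplemented steer 2, and it turned to lower under 6 of the 15 alternative settings. The catalytic subunits ATP5F1A and ATP5F1B differed by 0.850 and 0.813 SDs, and the membrane subunits ATP5MG, ATP5ME and ATP5MF, which lie where 2 ATP synthases pair, by 1.35, 0.679 and 0.581 SDs. The median of complex V was 0.674 SDs without supplemented steer 1 and 2.16 SDs without supplemented steer 3.

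The array holds a second probe set for 10 of the 39 subunits. In 7 of them it ran in the direction of the first, and in UQCRC2, ATP5F1B and ATP5F1D it did not. The ranges of the second probe sets of UQCRC2, ATP5F1B and ATP5F1D were 0.290, 0.123 and 0.349 millionths. That of UQCRC1, which ran in the same direction as the first, was 0.083. All of these are below the span of the array medians, so their directions carry little weight. The second probe sets of COX6C and ATP5F1A kept the groups apart, COX6C lower by -1.96 SDs (limma unadjusted p = 0.0751) and ATP5F1A higher by 2.12 SDs (limma unadjusted p = 0.0506), each with a range under that of the array medians. In COX8B the second probe set was higher by 1.91 SDs (limma unadjusted p = 0.0620) and, unlike the first, had its highest value in restricted steer 3.

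Complex I, which feeds electrons from NADH into the chain, also had mostly higher means in restricted steers and low values in supplemented steer 1. Of its 36 subunits with a probe set 31 were higher and 5 lower, with a median of 0.613 SDs. Of these, 0 passed the adjusted threshold. At an unadjusted limma p under 0.05, 3 were higher and 0 lower, against 2.15% and 2.47% of all genes. Supplemented steer 1 was lowest in 26 of the 36 (18.8% of all genes). NDUFV1, which binds NADH, had the smallest p (2.31 SDs, limma unadjusted p = 0.0346). Of 5 further subunits or partners of complexes III to V 4 were higher, ATP5MJ, a small subunit of the ATP synthase, by 2.13 SDs (limma unadjusted p = 0.0448).

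Assembly factors and genes of ATP, phosphate and creatine exchange were more evenly divided by count. Of 25 assembly factors of complexes II to V, 11 were higher and 14 lower, with a median of -0.0865 SDs. The median range of these 25 genes, 5.31 millionths, is below the span of the array medians, so many of their directions carry little weight. TMEM70, an assembly factor of the ATP synthase, had the smallest p among them (2.28 SDs, limma unadjusted p = 0.0363). Of 9 genes that carry ATP, phosphate and creatine phosphate energy across the mitochondrial membranes, 5 were higher and 4 lower. CKMT2, the mitochondrial creatine kinase of muscle, stood at -82.2, -19.2 and -23.8 millionths in supplemented and 38.6, 55.9 and 30.7 in restricted steers, without overlap (3.15 SDs, limma unadjusted p = 0.0119, adjusted p = 1.0). The ATP carrier SLC25A4 differed by 0.0710 SDs and the phosphate carrier SLC25A3 by 0.794 SDs. None of these lists had a gene past the adjusted threshold, and whether they differ from the subunits was not tested.

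Slow and fast fibre genes ordered the steers in other ways than the subunits by score. Of 9 slow fibre genes 5 were higher and 4 lower, with scores of -0.495, -0.0531 and 0.612 in supplemented and 1.04, -0.637 and -0.466 in restricted steers. MYOZ2, a protein of the Z line in slow fibres, had the smallest p (-1.04 SDs, limma unadjusted p = 0.242). Of 8 fast fibre genes 7 were lower and 1 higher, led by MYH1, the myosin heavy chain of fast IIX fibres (-3.46 SDs, limma unadjusted p = 0.00836). Supplemented steer 1, lowest for the subunits, stood at 0.323 on the fast fibre score, beside 0.334 and 0.390 in the other 2 supplemented steers. Restricted steers 1, 2 and 3 stood at -0.748, -0.274 and -0.0247, so every restricted steer was below every supplemented one on this score. The median range of the 8 fast fibre genes, 7.3 millionths, was below the span of the array medians. The part of fibre type in the values of the subunits was not tested.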

How the data were processed

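Total RNA was extracted with Trizol, purified on RNeasy columns, and 100 ng was labelled with biotin for an Affymetrix 3 prime expression array, per the labels' protocols. The values deposited by the authors, 24128 probe sets by 6 arrays, were read as log2 from their span of 4.81 to 12.67. How background, normalization and summarization were done, and the base of the logarithm, are unstated in the labels.

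The 112 control probe sets were left out, and limma 3.58.1 under R 4.3.3 was applied to 24016 (lmFit, eBayes without trend), restricted minus supplemented, two-sided, with Benjamini-Hochberg adjustment and a threshold of 0.05. Values were multiplied by 1e+09 before the fit. Each array holds a different steer, so p-values measure the spread of the deposited values between 3 steers a diet, and this number limits the precision. These values lie very close together for most genes for a reason not given, so their spread is not read as that of expression between animals. The fit was checked on simulated data. Of 13292 tested probe sets with 1 gene symbol, 13263 were found by gene identifier in RefSeq's ARS-UCD2.0 gene table, with 0 symbols altered. Several genes are listed for 86 probe sets and none for 10724.

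The members and gene lists were chosen with earlier results of these data known, so lists are described by counts and medians without a test. Named with their values in each steer were the 3 members of each complex with the smallest p and the 6 isoform genes of complex IV, and in each other list the gene with the smallest p was named. Genes named beyond this rule were chosen after their values were seen. Alternatives were a shift of arrays to the same median, quantile normalization, age as a covariate, the replicate number as a block, array weights, a trended prior, 2 filters on level, averaging the probe sets of each gene and leaving out each steer. The filters kept all 39 subunits. Promoter motifs and protein comparisons that had been planned were not run.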

Additional observations from a re-analysis of the deposited data

How the results depend on the processing

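Under all 15 alternatives 0 of the 39 subunits passed the adjusted threshold, which in so small a design says nothing about their stability. Of the 39, 25 kept their direction under every alternative that gave them one. The replicate number as a block, the trended prior and the filters on level could not turn a direction. Each replicate number holds 1 steer of each diet, so the block left every difference as it was, with 36 of 39 higher. The block changed the count of probe sets past the threshold from 1 to 0, as did age as a covariate (0). Same-numbered steers of the 2 groups deviated together with correlations of only 0.0374, 0.0151 and 0.0152 over all probe sets, so the numbers were not taken as a pairing, though each steer correlated best with its own number. Quantile normalization gave 33 of the 39 subunits and 15456 probe sets the same value in all 6 steers. It called 22 of the 8560 probe sets with spread left. Among the 6 subunits with spread left 1 was higher (37% of all genes with spread left), by complex 0 in complex II, 1 in complex III, 0 in complex IV and 0 in complex V. SDHD, ATP5F1D and COX6A1 had a difference of 0, and COX8A and ATP5PF were lower. The medians over these few were 1.63 SDs in complex III, -0.0169 SDs in complex IV, -0.408 SDs in complex V and 0 over all 6, and COX8A stood at -0.0339 SDs.

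With each steer left out in turn, 1 to 2 probe sets passed and 31 to 38 of the 39 subunits were higher. The median difference ran from 0.670 to 2.00 SDs over the 39 subunits, from 0.583 to 2.13 SDs in complex III and from 0.674 to 2.16 SDs in complex V. In complex II it ran from -0.356 to 1.37 SDs, with 1 to 4 members higher. In these 4 medians the lowest value came without supplemented steer 1 and the highest without supplemented steer 3. In complex IV the median ran from 0.472 SDs without supplemented steer 2 to 1.08 SDs without supplemented steer 3, and was 0.695 SDs without supplemented steer 1. SDHB ran from -0.558 to 1.36 SDs and SDHA from -0.155 to 4.93 SDs between the same 2 settings. CYC1 reached 2.46 SDs and UQCRC1 2.54 SDs without supplemented steer 3, UQCRH 2.57 SDs without restricted steer 2 and ATP5PD 3.02 SDs without supplemented steer 2.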

Other observations

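Genes of ubiquinone synthesis and of mitochondrial gene control were also measured. Ubiquinone carries electrons from complexes I and II to complex III, and 6 of its 9 synthesis genes were higher in restricted steers, with a median of 0.782 SDs. COQ6, a hydroxylase of this pathway, stood at -0.768, -0.593 and 0.144 millionths in supplemented and 0.248, 0.257 and 0.710 in restricted steers, without overlap (2.08 SDs, limma unadjusted p = 0.0486, adjusted p = 1.0). Its range over the steers, 1.48 millionths, was below the span of the array medians. Supplemented steer 1 had the lowest score of this list too, at -1.27. Of 13 regulators of mitochondrial gene expression, among them PPARGC1A, 5 were higher and 8 lower, with a median of -0.0875 SDs. TWNK, the helicase of mitochondrial DNA, had the smallest p (-1.10 SDs, limma unadjusted p = 0.221), with a range of 3.40 millionths, also below that span.

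Markers of other cells had 0 genes past the adjusted threshold. Of 8 endothelial markers 6 were higher, led by CLDN5 (1.37 SDs, limma unadjusted p = 0.152). Of 6 red blood cell genes 4 were higher, and ALAS2, of haem synthesis, had the smallest p (-2.02 SDs, limma unadjusted p = 0.0716). Of 7 macrophage markers 5 were lower, led by AIF1 (-1.90 SDs, limma unadjusted p = 0.0633). CLDN5, ALAS2 and AIF1 had ranges of 0.354, 0.237 and 1.36 millionths over the steers, all below the span of the array medians. Supplemented steer 1, the lowest for the subunits, had the highest macrophage score of the 6, at 1.32, while the other 5 steers ran from -0.696 to 0.0831.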
